A study of Mus musculus with 12 samples.

Results

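The 9 genes described here are Cx3cr1, P2ry12, Tmem119, Csf1r, C1qa, C1qb, C1qc, Aif1 and Trem2, which are widely used to mark microglia. They were chosen by name as known markers, with earlier results of these data known, and each matched 1 of the 54752 genes of the count table. All 9 had enough counts to be tested in every comparison. In edgeR's quasi-likelihood fit of each pair of diets no member passed an adjusted p of 0.05. DESeq2 called 1, Cx3cr1, between the ketogenic diet and dietary restriction. The share of all genes that DESeq2 called there is not given here, so the call cannot be set against it. By edgeR that share was 4.94%. Cx3cr1, also the member closest to the threshold in edgeR, was 9.25 ± 0.683 CPM (read counts scaled to library size) on the ketogenic diet and 7.52 ± 0.449 CPM on dietary restriction (SD, n = 4 each).

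Poly(A) RNA was sequenced from the cerebellar cortex of 12 wild-type (WT) male F1 hybrid C57BL6J/FVB mice aged 12 weeks, with 4 mice on each of 3 diets. AL mice ate freely. DR mice received a reduced portion once a day shortly before dark and did not receive the last meal before they were killed, so dietary restriction and a longer time since food cannot be told apart. KD mice were on a ketogenic diet whose composition, duration and time of dissection are not given in the sources used here. The paper describes strain, sex, dissection and library preparation for the AL and DR mice and does not mention KD mice. The tissue held several folia and no cerebellar nuclei, and of 6 mice on AL and on DR those with the best RNA were sequenced. Each library is 1 mouse.

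Microglia are the resident macrophages of the brain. They survey the tissue with motile processes, take up dying cells and synapses, and depend on signalling through the CSF1 receptor for their survival. In the cerebellum they are sparse compared with the very numerous granule cells, and they lie in the molecular and granule cell layers and in the white matter. Several of the 9 genes, among them Csf1r, Cx3cr1, Aif1, Trem2 and the C1q chains, are also used by macrophages at the borders of the brain, whereas P2ry12 and Tmem119 are more restricted to microglia.

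The 9 genes lie on 6 chromosomes of mouse genome build GRCm38.p6. Cx3cr1 is at chr9:119901616-120069879, P2ry12 at chr3:59216272-59262871, Tmem119 at chr5:113793729-113800516, Csf1r at chr18:61105572-61132149, Aif1 at chr17:35170991-35176068 and Trem2 at chr17:48346401-48354147. C1qb, C1qc and C1qa follow each other on chromosome 4 and are described with their values. All are protein-coding genes, and the counts are of reads over their exons. Of the exonic bases of Csf1r, 17.8% overlap exons of Hmgxb3 on the opposite strand, and since the library kit does not keep strand, reads of the pair cannot be separated there and the level of Csf1r is uncertain. The overlap was 1.73% for Cx3cr1 and 0.354% for P2ry12, and it was 0 for the other 6 genes.

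Between 31712084 and 40798644 reads were counted per library, with a median of 36674269. The counts of the 9 genes together came to 57.2 to 61.7 CPM of the library total on AL, 54.8 to 59.3 on DR and 58.1 to 65.3 on KD. Defining markers of other cells of the tissue were far higher: Gabra6, a GABA receptor subunit of granule cells, was at 817 to 946 CPM and Pcp2, a Purkinje cell gene, at 263 to 331 CPM. Of the exonic bases of Pcp2, 51.5% overlap exons of Pet100, so the level of Pcp2 is uncertain. The border macrophage genes Mrc1 (2.25 to 3.90 CPM), Cd163 (1.86 to 4.18 CPM) and Lyve1 (1.25 to 2.39 CPM) were detected in every library. Of markers of blood leukocytes, Cd3e had 1 to 8 counts, Ccr2 3 to 12 and S100a8 0 to 37.

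The counts set how finely each gene could be measured. The rarest member was Aif1, with 13 to 44 counts per library, followed by Trem2 with 54 to 98. Csf1r was the most counted, with 509 to 848, and the other 6 had between 107 and 372. Counting error alone gives a coefficient of variation of 21.2% for Aif1, 11.8% for Trem2 and 3.73% for Csf1r, and the variation between mice on the same diet was 31.4%, 13.5% and 8.16%. For C1qa the variation between mice, 5.82%, was close to the counting error of 5.73%, and for P2ry12 it was 6.73% against 7.24%. Cx3cr1 (8.23% against 5.77%), Tmem119 (11.6% against 7.90%), C1qb (9.19% against 7.27%) and C1qc (9.52% against 7.16%) were measured with errors of similar size.

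Per exonic length, C1qa was the highest of the 9, at 28.7 ± 2.16 TPM (SD over 12 libraries). TPM is counts divided by the length of all annotated exons and scaled to the library. C1qb followed at 16.97 ± 1.39 TPM, Csf1r at 14.4 ± 1.33 TPM and C1qc at 9.88 ± 0.881 TPM. P2ry12 (7.27 ± 0.670 TPM), Tmem119 (6.73 ± 0.791 TPM) and Cx3cr1 (6.51 ± 0.748 TPM) formed a group whose ranges overlapped. Aif1 and Trem2 were the lowest, both at 1.41 TPM, with an SD of 0.494 for Aif1 and 0.234 for Trem2. Their exonic lengths were 1532 and 4946 bases, and the order in TPM depends on these lengths. In CPM, Trem2 was above Aif1 on each diet (means of 1.69 to 2.22 against 0.503 to 0.794). Within a library, C1qa was above C1qb in 12 of 12, C1qb above Csf1r in 11, Csf1r above C1qc in 12 and C1qc above P2ry12 in 12. The neighbours P2ry12 and Tmem119 (10 of 12) and Tmem119 and Cx3cr1 (9 of 12) kept their order less regularly, and Aif1 was above Trem2 in 6 of 12. Among the 19557 genes that passed a filter on low counts over all libraries, C1qa was at the 69.3rd percentile of TPM, Csf1r at the 53.6th, Cx3cr1 at the 38.4th, and Aif1 and Trem2 at the 15.9th.

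**Figure D1:**
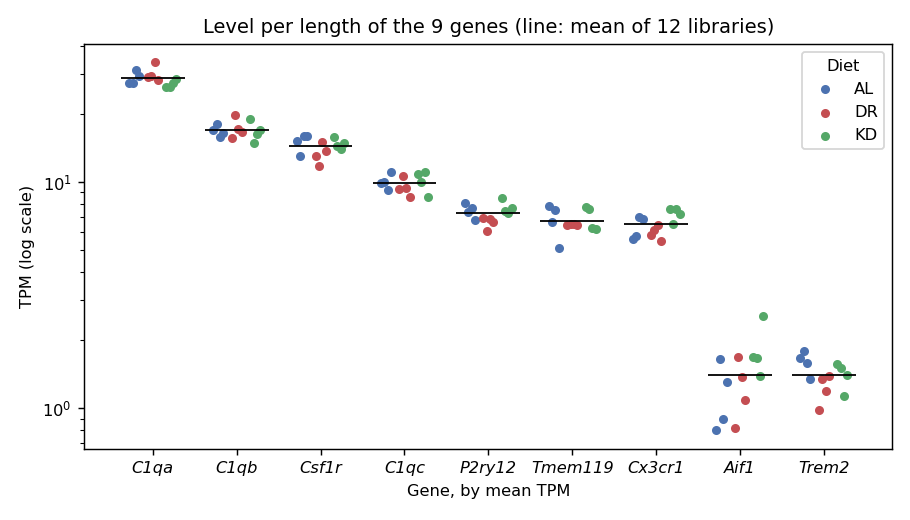
TPM on a log axis for the 9 genes in the order of their mean; each point is 1 of 12 libraries, coloured by diet, and the line is the mean of the 12. C1qa, at 26.2 to 33.7 TPM, stands apart from the other genes, P2ry12, Tmem119 and Cx3cr1 overlap, and Aif1 and Trem2 lie together at the bottom.

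The question of the diets was put to the whole count table first, so that the members can be read against it. With edgeR's quasi-likelihood test, 583 of 19052 genes (3.06%) passed an adjusted p of 0.05 for DR against AL and 942 of 19087 (4.94%) for KD against DR. For KD against AL 0 of 19036 (0%) passed, with 928 at an unadjusted p under 0.05 and 10 called by DESeq2. The share of genes at an unadjusted p under 0.05 was 18% for DR against AL, 4.87% for KD against AL and 18.7% for KD against DR. The share whose libraries did not overlap between the diets was 10.9%, 2.96% and 11.8% in the same order. The 3 comparisons share libraries in pairs and are not independent of each other.

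Of the 9 members, 0 were called by edgeR in each of the comparisons. At an unadjusted p under 0.05 there were 2 for DR against AL, 2 for KD against AL and 3 for KD against DR. DESeq2 called 0, 0 and 1 member, the last being Cx3cr1. Over all genes DESeq2 called more than edgeR for DR against AL, 1012 against 583. Its count over all genes for KD against DR is not given here, so the call of Cx3cr1 cannot be set against that share. The median log2 fold change of the members was -0.08 for DR against AL, with 6 members below 0 and 3 above, and the median of all genes was 0.00. It was 0.03 for KD against AL (6 above, 3 below) and 0.17 for KD against DR (7 above, 2 below), beside medians of 0.00 for all genes. In bulk tissue, fewer cells of a type and less RNA per cell cannot be told apart, and this holds for every value given here.

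**Figure D2:**
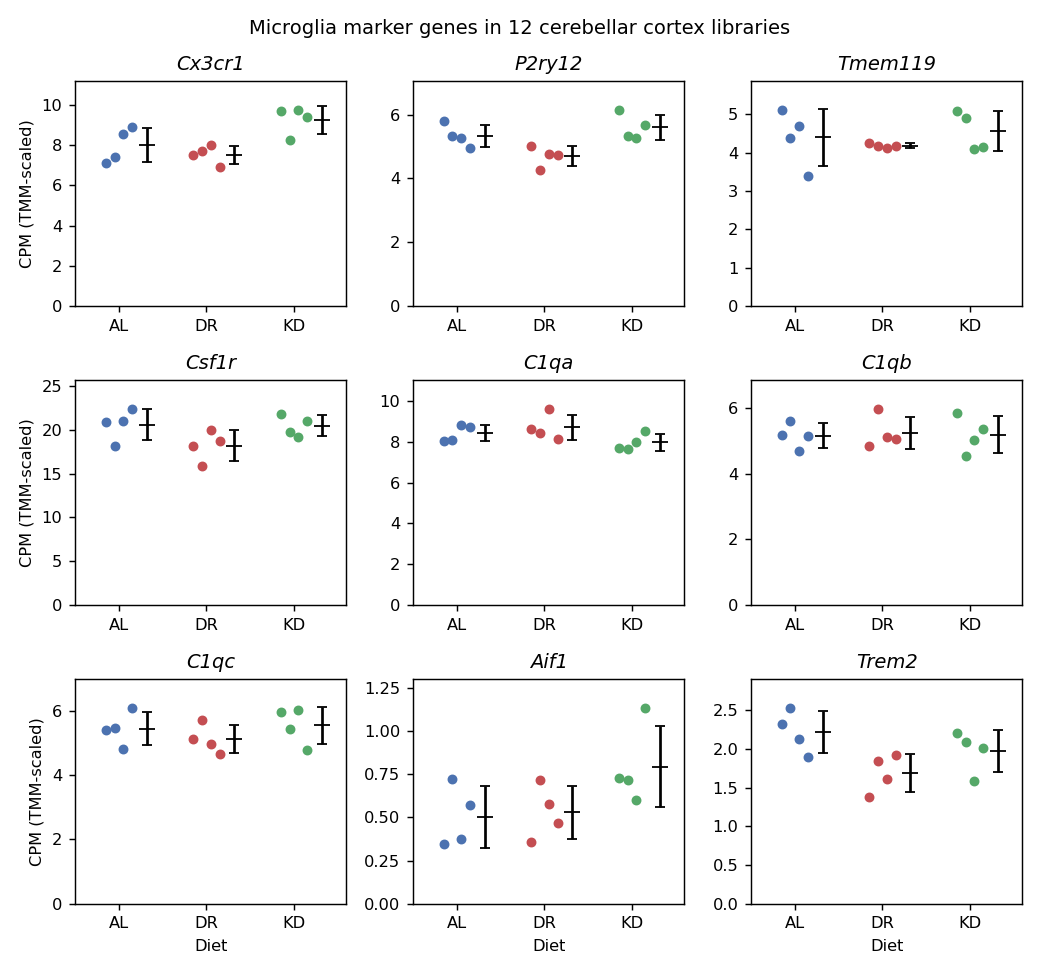
CPM of each of the 9 genes by diet, on an axis from 0; each point is 1 mouse and the black bar is the mean with its SD (n = 4). Cx3cr1 on KD (8.25 to 9.71 CPM) lies above DR (6.93 to 7.996 CPM), P2ry12 shows the same separation, and the diets overlap for the C1q genes.

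The receptors of resting microglia came nearest to the threshold, in the comparison of KD with DR. Cx3cr1 encodes the receptor for fractalkine, a chemokine that neurons carry on their surface. On AL it was at 7.12, 7.41, 8.52 and 8.87 CPM, on DR at 7.48, 7.68, 7.996 and 6.93 CPM, and on KD at 9.66, 8.25, 9.71 and 9.37 CPM. All 4 KD mice were above all 4 DR mice, whereas the AL mice overlapped both diets. The log2 fold change for KD against DR was 0.30 (standard error 0.08), with an adjusted p of 0.0537 in edgeR's test and a 95% interval of 1.09 to 1.39-fold. The result sat at the threshold: the adjusted p was 0.0495 with the size factors of DESeq2 in edgeR, 0.0269 with DESeq2 itself, 0.0446 without a filter on low counts and 0.0358 without KD replicate 2. It was 0.0749 in edgeR scaled by library size alone, 0.0613 with all 12 libraries in 1 fit, and between 0.0692 and 0.148 when any other mouse was left out. The log2 fold change of Cx3cr1 was 0.22 for KD against AL (adjusted p = 0.981 by edgeR), and for DR against AL it was -0.08 (adjusted p = 0.714 by edgeR).

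P2ry12 encodes an ADP receptor through which microglial processes turn towards sites of injury. It was at 5.79, 5.32, 5.28 and 4.94 CPM on AL, at 5.01, 4.27, 4.77 and 4.73 CPM on DR, and at 6.13, 5.34, 5.25 and 5.66 CPM on KD. The KD mice were again all above the DR mice, by a small gap, and AL replicate 4 lay within the DR range. For KD against DR its difference was 0.25 on the log2 scale (adjusted p = 0.173 by edgeR, standard error 0.10, 95% interval 1.03 to 1.38-fold). For DR against AL it was -0.18 with an adjusted p of 0.372 by edgeR. Cx3cr1 and P2ry12 were the 2 members whose KD and DR libraries did not overlap, beside 11.8% of all genes, and no member was without overlap in the other comparisons.

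Tmem119 encodes a membrane protein found on microglia and little on other macrophages. It was at 5.10, 4.39, 4.71 and 3.39 CPM on AL, at 4.27, 4.18, 4.11 and 4.18 CPM on DR, and at 5.09, 4.91, 4.10 and 4.14 CPM on KD. The DR mice lay close together, with an SD of 0.0625 CPM, inside the range of the AL mice, whose SD was 0.731 CPM. Its log2 fold changes were -0.08 for DR against AL, 0.05 for KD against AL and 0.12 for KD against DR, with adjusted p of 0.809, 0.994 and 0.595 by edgeR.

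Csf1r encodes the receptor for CSF1 and IL-34, on which the survival of microglia depends. On AL it was at 20.9, 18.1, 21.0 and 22.4 CPM, on DR at 18.2, 15.9, 20.05 and 18.7 CPM, and on KD at 21.8, 19.8, 19.2 and 21.1 CPM. DR replicate 2 was the lowest of all 12 libraries, and the diets overlapped. Its difference on the log2 scale was -0.18 for DR against AL (adjusted p = 0.274 by edgeR, standard error 0.08) and 0.17 for KD against DR (adjusted p = 0.227 by edgeR, standard error 0.07), and it was 0.00 for KD against AL, with a 95% interval of 0.898 to 1.11-fold. These values carry the uncertainty from the overlap with Hmgxb3.

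**Figure D3:**
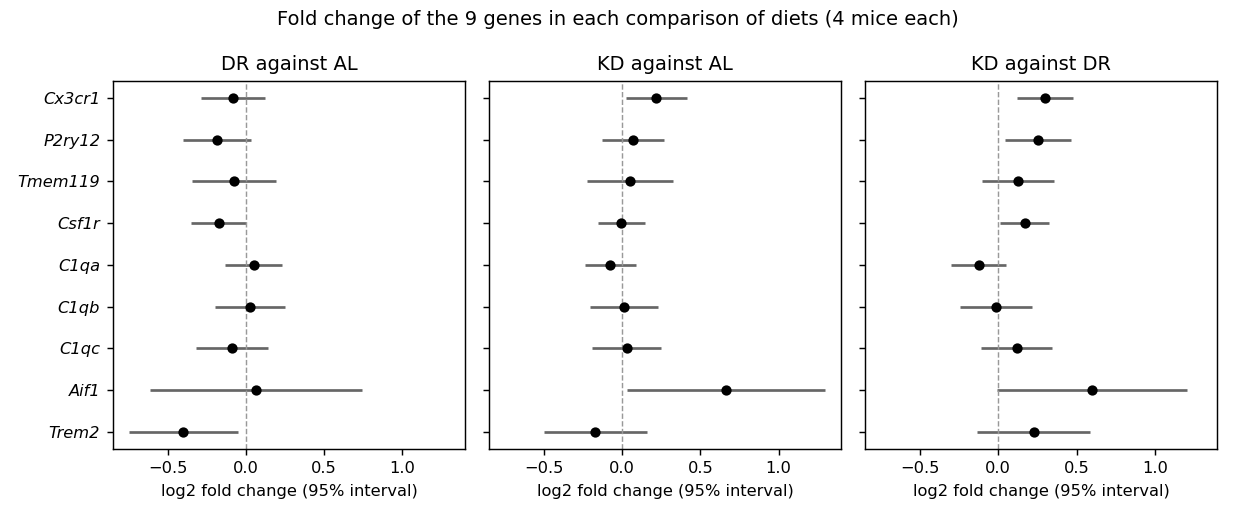
Log2 fold change (point) and 95% interval (line) of the 9 genes in each comparison of diets, from edgeR's quasi-likelihood fit of 4 against 4 mice; the dashed line marks no difference. The interval of Cx3cr1 for KD against DR runs from 0.12 to 0.48, and that of Aif1 is the widest in each panel.

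The C1q genes encode the A, B and C chains that assemble into C1q, the molecule that starts the classical complement pathway and tags synapses and debris for removal. In the brain microglia are its main source. The 3 genes are on the minus strand of chromosome 4 within 18675 bases: C1qb at chr4:136880129-136886187, C1qc at chr4:136889804-136893065 and C1qa at chr4:136895917-136898803. The gap is 3616 bases between C1qb and C1qc and 2851 bases between C1qc and C1qa. Each has 3 exons in the annotation used for counting.

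The stretches before the starts of C1qb and C1qc are shown because these neighbours encode chains of a single protein and their levels are compared across mice next. They are RefSeq promoter sequences of GRCm38.p6, restricted to the bases outside the gene as annotated in the count table, on the minus strand from 5′ to 3′. Capitals mark GAGGAA, the core letters of a PU.1-type ETS motif, or its reverse complement. PU.1 is a transcription factor of macrophages and microglia. The first is at chr4:136886201-136886450 and the second at chr4:136893066-136893164.
C1qb: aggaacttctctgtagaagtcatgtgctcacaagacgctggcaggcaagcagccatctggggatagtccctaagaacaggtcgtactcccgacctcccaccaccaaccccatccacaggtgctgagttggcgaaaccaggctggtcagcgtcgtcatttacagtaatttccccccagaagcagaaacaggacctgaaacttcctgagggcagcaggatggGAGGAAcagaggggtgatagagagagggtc
C1qc: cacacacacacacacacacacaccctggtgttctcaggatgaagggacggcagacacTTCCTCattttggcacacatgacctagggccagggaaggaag
The match begins 43 bases before the annotated start of C1qb and 42 bases before that of C1qc. RefSeq windows from 250 bases before to 50 after a start were held for 6 members, P2ry12, C1qb, C1qc, Cx3cr1, Aif1 and Trem2. GAGGAA, searched on both strands, was in 4 of these 6 (C1qb, C1qc, Aif1 and Trem2) and in 28.3% of all 32851 windows. The longer letters GAGGAAGT, which contain it, were in 1 of the 6 (C1qc) and in 3.20% of all windows. These matches describe letters only.

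C1qa was at 8.06, 8.10, 8.84 and 8.75 CPM on AL, at 8.63, 8.46, 9.61 and 8.16 CPM on DR, and at 7.72, 7.65, 8.02 and 8.55 CPM on KD. It was the member with the least variation between mice, and the diets overlapped. Its log2 fold change was 0.05 for DR against AL, with a 95% interval of 0.913 to 1.17-fold, and -0.13 for KD against DR, with an interval of 0.811 to 1.03-fold. C1qb was at 5.18, 5.60, 4.68 and 5.13 CPM on AL, at 4.85, 5.96, 5.12 and 5.06 CPM on DR, and at 5.85, 4.54, 5.01 and 5.35 CPM on KD. The ranges of the 3 diets overlapped over most of their length, and the intervals were 0.870 to 1.19-fold for DR against AL and 0.845 to 1.16-fold for KD against DR. C1qc was at 5.40, 5.47, 4.82 and 6.08 CPM on AL, at 5.13, 5.71, 4.98 and 4.64 CPM on DR, and at 5.95, 5.42, 6.02 and 4.79 CPM on KD. It too overlapped between all diets, with intervals of 0.802 to 1.10-fold for DR against AL and 0.927 to 1.27-fold for KD against DR. For KD against AL the intervals of the chains were 0.847 to 1.06-fold (C1qa), 0.867 to 1.17-fold (C1qb) and 0.876 to 1.19-fold (C1qc). Their adjusted p by edgeR ranged up to 0.996 and was lowest for C1qa in KD against DR, at 0.447.

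In TPM, the level per length, the ratio of C1qa to C1qb was 1.70 ± 0.184, that of C1qa to C1qc was 2.93 ± 0.391 and that of C1qb to C1qc was 1.73 ± 0.170 (SD over 12 libraries). The order of the chains in TPM was therefore the same in every library, since the lowest of these ratios were 1.38, 2.41 and 1.48. That of C1qb and C1qc depends on their exonic lengths, 1088 and 1931 bases. In mean CPM, which is not divided by length, C1qc was above C1qb on AL (5.44 and 5.15) and on KD (5.55 and 5.19). On DR it was below (5.12 and 5.25). By diet, the ratio of C1qa to C1qc was 2.90 ± 0.340 on AL, 3.18 ± 0.346 on DR and 2.704 ± 0.417 on KD (SD, n = 4 each), and these ranges overlapped.

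Aif1 encodes IBA1, a calcium-binding protein of the cytoskeleton and the usual stain for microglia. It was at 0.345, 0.723, 0.373 and 0.570 CPM on AL, at 0.358, 0.718, 0.575 and 0.467 CPM on DR, and at 0.727, 0.714, 0.602 and 1.13 CPM on KD. KD replicate 4, with 44 counts, was the highest of the 12 libraries, and the remaining KD mice reached no higher than 28 counts, as did AL replicate 2. Between KD and AL, KD was higher by 0.67 on the log2 scale (adjusted p = 0.994 by edgeR, standard error 0.30), with an interval of 1.02 to 2.46-fold, and the difference was 0.44 without KD replicate 4. Against DR, KD was higher by 0.60 (adjusted p = 0.273 by edgeR, interval 0.996 to 2.31-fold), the largest fold of the members there, and by 0.38 without KD replicate 4. For DR against AL the interval, 0.653 to 1.67-fold, was too wide at this depth to show a change smaller than that.

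Trem2 encodes a lipid-sensing receptor that signals through the adaptor TYROBP and takes part in phagocytosis. It was at 2.32, 2.53, 2.12 and 1.90 CPM on AL, at 1.38, 1.84, 1.61 and 1.92 CPM on DR, and at 2.21, 2.08, 1.59 and 2.01 CPM on KD. All DR mice but replicate 4 were below all AL mice, and the KD mice spread over both. For DR against AL its difference was -0.40 on the log2 scale (adjusted p = 0.209 by edgeR, standard error 0.16), with an interval of 0.595 to 0.964-fold. It was 0.23 for KD against DR (adjusted p = 0.515 by edgeR) and -0.17 for KD against AL (adjusted p = 0.994 by edgeR). Tyrobp itself was at 2.26 ± 0.240 CPM on AL, 1.85 ± 0.335 CPM on DR and 2.11 ± 0.316 CPM on KD (SD, n = 4 each), and for DR against AL edgeR gave it a log2 fold change of -0.29 with an adjusted p of 0.388.

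No joint variation of the 9 genes was detectable among mice on the same diet. After the mean of each diet was removed from log2 CPM, 17 of the 36 pairs of members had a positive Pearson r and 19 a negative one, with a median of -0.07 and a range from -0.56 to 0.70 over 12 libraries. By two-sided exact permutation within diets (13824 pairings) with Benjamini-Hochberg adjustment over the 36 pairs, 0 pairs passed, and 1 had an unadjusted p of r under 0.05. That pair was Cx3cr1 and C1qa, with r = 0.70 and Spearman's rho = 0.78 (exact permutation p = 0.019 for r and 0.0123 for rho, adjusted 0.627 and 0.443), and r was 0.65 without the 2 mice farthest from the median of Cx3cr1.

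The chains of C1q also gave no relation that passed. For C1qa and C1qb, r was -0.16 and rho -0.01 (exact permutation p = 0.641 and 0.975, adjusted 0.793 and 0.975). Without the 2 mice farthest from the median of C1qa, r was -0.30. For C1qa and C1qc, r was -0.25 and rho -0.13 (exact permutation p = 0.466 and 0.724, adjusted 0.716 and 0.896), and r was 0.18 without the 2 mice farthest from the median of C1qa. For C1qb and C1qc, r was 0.42 and rho 0.43 (exact permutation p = 0.226 and 0.214, adjusted 0.627 and 0.715). Without the 2 mice farthest from the median of C1qb, a choice that narrows the range of C1qb, r was 0.03. Without any 1 mouse it was 0.23 to 0.63. Counting error of the size given above is part of every one of these values. No batch is given in the labels, so none could be looked at within diets.

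**Figure D4:**
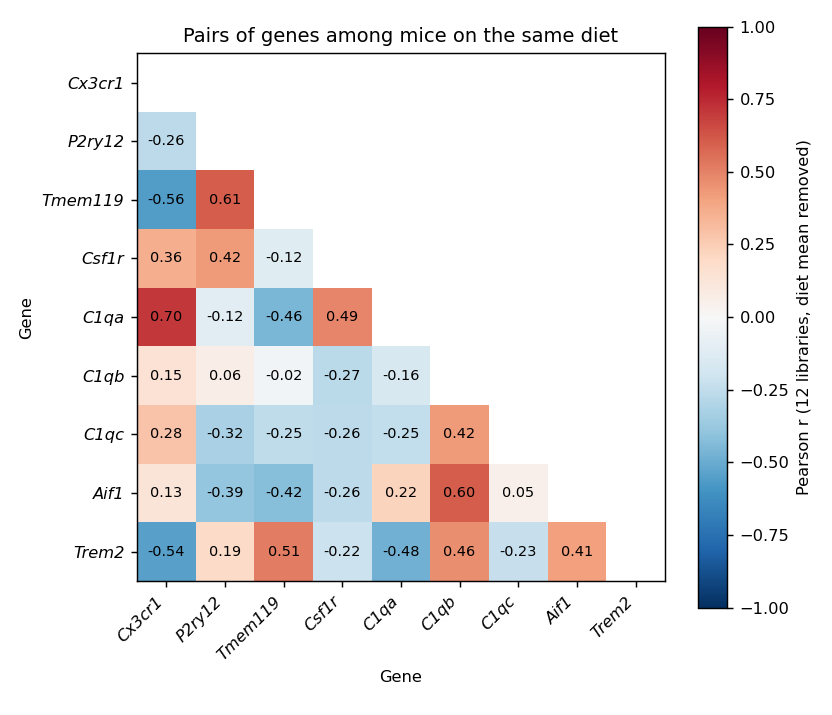
Pearson r for the 36 pairs of the 9 genes over 12 libraries, with the mean of each diet removed; red is positive and blue negative, and each cell prints its r. Positive and negative cells are mixed, from -0.56 (Cx3cr1 and Tmem119) to 0.70 (Cx3cr1 and C1qa).

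The mean log2 CPM of the 9 genes was 2.24 ± 0.0441 on AL, 2.15 ± 0.0673 on DR and 2.32 ± 0.0822 on KD (SD, n = 4 each). Of 15469 other genes that averaged 1 CPM or more, those whose levels followed this mean most closely among mice on the same diet were Pts (r = 0.91), Grk5 (0.89), Gm44769 (0.88), Gm6505 (0.88), Ly6h (0.87), Gm37027 (0.87), Zfhx4 (0.87), Ube2l6 (0.86), Agbl2 (0.86) and Mrpl2 (0.85). The points are 12 libraries and share their depth, and the 10 were picked from all genes compared. The mean gave each member the same weight. Aif1 varied most in CPM between mice on the same diet, by 31.4% against 5.82% to 13.5% for the other members. How far the 10 follow Aif1 alone was not tested. The study's own list of 351 microglia genes, drawn from published cerebellar single-cell data and holding 8 of the 9 members, included 0 of these 10.

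The ligands of the receptors were read next. Cx3cl1, the fractalkine that binds CX3CR1, was at 65.1 ± 2.18 CPM on AL, 63.1 ± 2.51 CPM on DR and 64.5 ± 2.59 CPM on KD (SD, n = 4 each). Csf1 was at 19.0 ± 2.42, 19.6 ± 1.16 and 19.7 ± 0.513 CPM in the same order, and Il34, a second ligand of the CSF1 receptor, at 5.11 ± 0.455, 4.77 ± 0.217 and 4.96 ± 0.951 CPM. None of these ligands was called by edgeR in any comparison, and their log2 fold changes for DR against AL were -0.04, 0.04 and -0.10. Of 13 tested ligands and partners of the receptors, 0 were called by edgeR in each comparison, with 2, 0 and 0 at an unadjusted p under 0.05 for DR against AL, KD against AL and KD against DR.

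Other genes of resting microglia lay, like most members, below 0 for DR against AL and above 0 for KD against DR. For DR against AL, 26 of 35 tested had a log2 fold change below 0, with a median of -0.14, 0 called by edgeR and 7 at an unadjusted p under 0.05, beside 18% of all genes. For KD against DR, 27 of 34 were above 0, with a median of 0.19. At an unadjusted p under 0.05 by edgeR there were 11 (10 higher, 1 lower), beside 18.7% of all genes. Called were 2, or 5.88% beside 4.94% of all genes, a share near the background. These were Fcrls, an Fc receptor-like gene of microglia, at 1.35 ± 0.180 CPM on KD and 0.747 ± 0.106 CPM on DR (log2 fold change 0.84, adjusted p = 0.0244 by edgeR), and Sall1, a transcription factor of microglial identity, at 6.54 ± 0.870 and 4.88 ± 0.498 CPM (log2 fold change 0.42, adjusted p = 0.0406 by edgeR; SD, n = 4 each). On AL, Fcrls was at 1.27 ± 0.403 CPM and Sall1 at 6.23 ± 1.08 CPM (SD, n = 4 each). The KD and DR libraries did not overlap for either gene, as for 11.8% of all genes. Fcrls was called in 4 of the 8 edgeR fits that left out a mouse (adjusted p up to 0.0946) and Sall1 in 2 (up to 0.149). Both comparisons use the same DR libraries.

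The complement list beyond C1q was, of the 6 microglia-related lists, the only one with called genes for DR against AL. It held 3 called of 23 tested, or 13.0% beside 3.06% of all genes. C4b, a component cleaved by the C1 complex, was at 7.49 ± 2.21 CPM on DR, 3.92 ± 0.497 CPM on AL and 4.79 ± 0.648 CPM on KD (SD, n = 4 each). It rose on DR against AL by 0.93 on the log2 scale (adjusted p = 0.0129 by edgeR, standard error 0.18), a call made in all 8 fits that left out a mouse, and it was lower on KD than on DR by -0.64 (adjusted p = 0.0419 by edgeR), made in 2 of 8 such fits (adjusted p up to 0.134). Mouse C4b has a close copy, C4a, and how reads were shared between them is not stated, so its level is uncertain. Serping1, the inhibitor of the C1 proteases, was at 14.8 ± 1.94 CPM on DR and 11.5 ± 0.486 CPM on AL (log2 fold change 0.37, adjusted p = 0.0404 by edgeR), called in 1 of 8 fits without a mouse (adjusted p up to 0.125). Csmd1, a complement regulator of neurons, was at 15.2 ± 2.78 CPM on DR, 22.1 ± 1.55 CPM on AL and 21.7 ± 0.530 CPM on KD. It fell on DR against AL (log2 fold change -0.53, adjusted p = 0.0163 by edgeR) and was higher on KD than on DR (0.51, adjusted p = 0.00774 by edgeR), in all 8 fits without a mouse for both comparisons. The DR values of C4b and Csmd1 enter both of their comparisons. For KD against DR the list held 2 called of 23 tested, or 8.70% beside 4.94% of all genes. The median of the list was 0.03 for DR against AL and 0.00 for KD against DR.

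The remaining lists had called genes for KD against DR. In that comparison 2 of 22 disease-associated and phagocytic genes passed: Mertk, a receptor for dying cells that astrocytes also carry, was lower on KD (log2 fold change -0.54), and Fabp5, a fatty acid-binding protein, was higher (0.27). Of 15 genes of inflammation 1 passed, Nfkbia, the inhibitor of NF-kB, which was lower on KD (-0.42). Of 24 genes of antigen presentation and the interferon response 2 passed, B2m (0.30) and H2-K1 (0.41). They encode the light and a heavy chain of MHC class I, with the heavy chain belonging to a family of similar genes. The called shares of these lists were 9.09%, 6.67% and 8.33% in this order, beside 4.94% of all genes. Mertk and Nfkbia were called in all 8 fits that left out a mouse, Fabp5 in 6 (edgeR's adjusted p up to 0.0661), B2m in 5 (up to 0.0684) and H2-K1 in 3 (up to 0.131). The 6 lists together held 9 called of 131 tested for KD against DR (6 higher, 3 lower), or 6.87% beside 4.94% of all genes. They held 3 of 131 for DR against AL, or 2.29% beside 3.06% of all genes, and 0 of 130 for KD against AL by edgeR, the last with 9 at an unadjusted p under 0.05 and 0 called by DESeq2. The count of 9 fell to 3 without DR replicate 3, to 3 without KD replicate 1 and to 5 without KD replicate 3. The study's microglia list held 6 called of 350 for DR against AL (4 higher, 2 lower), or 1.71%, and 12 of 341 for KD against DR (6 higher, 6 lower), or 3.52%, both below the shares of all genes. For KD against AL it held 0 of 340 by edgeR (19 at an unadjusted p under 0.05).

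**Figure D5:**
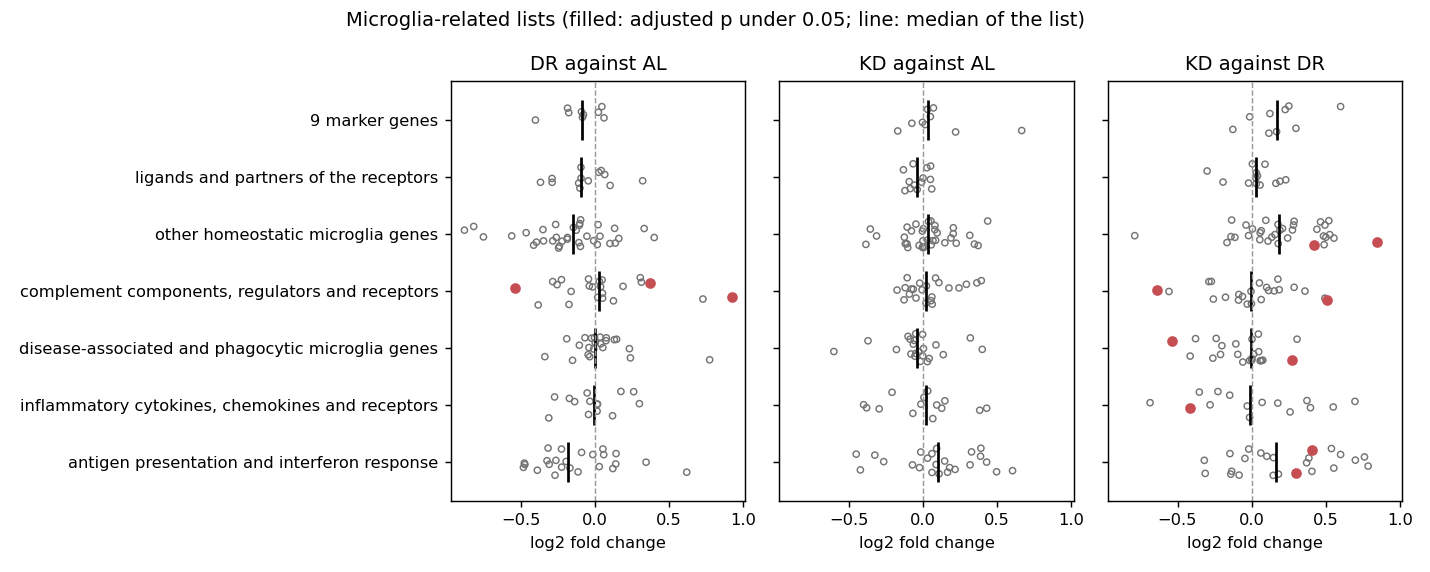
Log2 fold change of every tested gene of the 9 markers and of the 6 microglia-related lists, by comparison; filled points passed an adjusted p of 0.05 in edgeR, open points did not, and the black line is the median of a list. For KD against AL 0 genes are filled, and for KD against DR the medians of the 9 markers (0.17) and of other homeostatic genes (0.19) lie right of 0.

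Markers of other cells moved between the same diets. For DR against AL, 2 of 7 astrocyte and Bergmann glia markers were called, Aqp4 and Hopx, or 28.6% beside 3.06% of all genes. Of 7 Purkinje cell markers 2 were also called, or 28.6%, with Car8 among them. Aqp4, Hopx and Car8 were lower on DR. Of these, Aqp4 and Hopx were called in all 8 fits without a mouse and Car8 in 3 (edgeR's adjusted p up to 0.108). Exons of Hopxos overlap 27.2% of the exonic bases of Hopx, so the level of Hopx is uncertain. Aqp4, a water channel of astrocytes, was at 137 ± 11.7 CPM on DR and 196 ± 14.8 CPM on AL (log2 fold change -0.52, adjusted p = 7.06e-04 by edgeR). For KD against DR, the astrocyte and Bergmann glia, Purkinje cell and granule cell lists each had 2 of 7 called. This was 28.6% beside 4.94% of all genes. Aqp4, Hopx and Car8 were called higher on KD, and granule cell markers had Fat2 higher and Cbln3 lower. Aqp4 and Hopx were called in all 8 of these fits without a mouse, Car8 in 6 (edgeR's adjusted p up to 0.0571), Cbln3 in 5 (up to 0.0656) and Fat2 in 4 (up to 0.0991). Border macrophage markers had 0 of 11 called by edgeR in each comparison (2, 0 and 2 at an unadjusted p under 0.05), and their sum ranged over 25.2 to 27.6 CPM on AL, 22.6 to 30.4 on DR and 22.8 to 29.9 on KD. Their median log2 fold change was 0.22 for DR against AL (7 above 0, 4 below), 0.09 for KD against AL (7 above, 4 below) and -0.16 for KD against DR (3 above, 8 below). Erythroid genes had 0 of 5 called by edgeR in each comparison, with 1, 5 and 0 at an unadjusted p under 0.05, and summed to 275 to 423 CPM on AL, 176 to 494 on DR and 238 to 270 on KD. Endothelium and pericyte markers had 0 of 7 called by edgeR in each comparison (1, 0 and 2 at an unadjusted p under 0.05). Blood leukocyte markers had 2 of 14 genes above the filter and 0 called by edgeR (0, 1 and 0 at an unadjusted p under 0.05), and none of the 14 was at 0 in all libraries. The part of any of these cells in the values of the 9 genes was not tested.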

How the data were processed

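The authors removed adaptors with Trimmomatic 0.39, aligned reads with STAR 2.7.0f to GRCm38.p6 with the GENCODE M20 annotation and counted reads per gene with featureCounts of Subread 1.6.4, per the study's methods and the submitters' processing notes. The deposited table holds raw counts of 54752 genes in 12 libraries, without normalization, together with exon positions and the exonic length. The use of strand in counting is not given in the sources used here. Diets came from the sample labels; replicates are numbered in accession order and are not paired.

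Symbols were matched for 54723 genes by a later GENCODE release. For each comparison, the 8 libraries of both diets were fitted with edgeR 4.0.16 in R 4.3.3: filterByExpr (minimum count 10, minimum total 15), TMM, the quasi-likelihood test without covariates, and Benjamini-Hochberg adjustment over all genes with a threshold of 0.05. Standard errors and 95% intervals follow from the F statistic. CPM used TMM-scaled library sizes over 12 libraries, log2 CPM a prior count of 2, and TPM the exonic length. The p-values of the comparisons set the difference between diets against the variation between mice, which includes counting error.

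Alternatives were the size factors of DESeq2 (DESeq2 1.42.0) in edgeR, library size alone, DESeq2's Wald test, no filter, a mean above 10 CPM, all 12 libraries in a single fit, and leaving out each mouse. Named were the 9 members, called genes of the lists (at most 6 per list and comparison), Cx3cl1, Csf1, Il34, Tyrobp and the 10 genes most like the members' mean. Members and lists were chosen with earlier results of these data known. Depth bounds the precision: a library had at least 31712084 counts. Some called marker genes of other cell types are not reported here.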

Additional observations from a re-analysis of the deposited data

Results flagged for a closer look

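Dixon's test sought a mouse far from the others in the 27 groups of 4 (9 genes by 3 diets) and named 0 mice at its 95% level.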

How the results depend on the processing

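All genes called for DR against AL numbered 1012 with DESeq2 and 1258 without a filter (583 in the report), and 235 to 712 when a mouse was left out, lowest without DR replicate 3. For KD against AL they were 10 with DESeq2, 118 without a filter and 0 to 6 without a mouse. For KD against DR they were 1503 without a filter and 467 to 946 without a mouse, lowest without KD replicate 3. Of the 9 members, 1 (Cx3cr1) was called for KD against DR with the size factors of DESeq2, with DESeq2 and without a filter, and 0 to 1 without a mouse. The counts of all genes with the size factors of DESeq2 and with DESeq2 are not given here for that comparison. The lists had 6 called for DR against AL and 2 for KD against AL without a filter. Without a mouse they had 2 to 3, 0 to 1 (1 without AL replicate 4) and 3 to 9 for KD against DR. The cause of these shifts was not tested.

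The correlation of C1qa and C1qc reversed to 0.18 without 2 mice. Without 1 mouse it was -0.49 to 0.023, that of C1qa and C1qb -0.39 to -0.04 and that of C1qb and C1qc 0.23 to 0.63.

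Small log2 fold changes changed sign when a mouse was left out. For DR against AL they spanned -0.18 to 0.0089 for Tmem119, -0.11 to 0.30 for Aif1, -0.040 to 0.068 for C1qb and -0.0026 to 0.083 for C1qa. For KD against AL they spanned -0.065 to 0.035 for Csf1r, -0.050 to 0.070 for C1qb, -0.022 to 0.093 for C1qc and -0.052 to 0.13 for Tmem119. For KD against DR they spanned -0.076 to 0.051 for C1qb. None of these passed the test. With the other settings 133 fold changes of members kept their direction and their side of the threshold and 3 passed it, all of Cx3cr1. DESeq2 gave no adjusted p for 2, those of Aif1 for DR against AL and KD against DR, whose direction was kept. With a mean above 10 CPM, Csf1r was the only member left. No paired analysis was possible because the labels carry no replicate numbers.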
